A study of Mus musculus with 6 samples.

Results

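The NAIP-NLRC4 inflammasome and pyroptosis genes were followed in RNA-seq libraries of intestinal tissue from mice with colitis induced by dextran sulfate sodium (DSS), which damages the gut lining when mice drink it. The set holds 10 genes given by name, Naip1, Naip2, Naip5, Naip6, Nlrc4, Pycard, Casp1, Casp4, Gsdmd and Il18. Each matched 1 of the 55335 rows of the deposited count table, and all 10 were among the 14107 genes abundant enough to test. The series compares wild-type (WT) mice with Trmt6-/- mice, 3 of each, and all 6 mice had received DSS. Trmt6 encodes the partner subunit of the tRNA 1-methyladenosine methyltransferase, without catalytic activity of its own. The labels give neither the strain, the age, the design of the Trmt6 allele nor the intestinal segment, and no library of an untreated mouse was analysed here. The table names the Trmt6-/- libraries KO72, KO73, KO75 and the WT libraries WT185, WT186, WT187. They are called the KO-labelled and the WT-labelled libraries, and wherever 3 values of a group are listed they follow that order.

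NAIP proteins are cytosolic sensors that bind parts of bacterial secretion systems and flagellin. A NAIP that has bound its ligand recruits NLRC4, and the assembled complex activates caspase-1, directly or through the adaptor ASC, which Pycard encodes. Caspase-1 matures interleukin-18, the product of Il18, and cuts gasdermin D, the product of Gsdmd, whose released fragment makes pores in the plasma membrane and so causes pyroptosis. Caspase-11, encoded by Casp4, cuts gasdermin D after sensing cytosolic lipopolysaccharide. In the gut this pathway is known for working inside epithelial cells, where it drives the expulsion of infected cells into the lumen.

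The 4 Naip genes are tandem copies on the minus strand of chromosome 13 (GRCm38), which bears on how their reads can be counted. Naip2 lay at 100144063 to 100202092, Naip5 at 100211739 to 100246323, Naip6 at 100281121 to 100317674 and Naip1 at 100407764 to 100452869. The other members were single genes elsewhere, Nlrc4 on chromosome 17 (74425438 to 74459142), Pycard on chromosome 7 (127989708 to 127993867), Gsdmd on chromosome 15 (75862327 to 75867408), and Casp1 (5298508 to 5307290), Casp4 (5308828 to 5336783) and Il18 (50554827 to 50581840) on chromosome 9. Within the cluster the pseudogenes Naip3-ps1 (100264745 to 100278817) and Naip3 (100340144 to 100378960) lay among the coding copies. In GENCODE M21 the longest coding sequences of Naip5 and Naip6 were 97.0% identical over 4209 aligned bases, with a longest identical run of 229 bases. Naip1 was 91.9% identical to Naip5, 91.1% to Naip6 and 90.3% to Naip2. The stretch below is shown because the copies cannot be told apart in it. It is the first window of 60 coding bases, each within 1 exon, in which all 4 sequences are the same, so it has 1 sequence and 4 positions on chromosome 13: 100427177 to 100427236 in Naip1, 100161916 to 100161975 in Naip2, 100223248 to 100223307 in Naip5 and 100300535 to 100300594 in Naip6.
All 4 Naip genes: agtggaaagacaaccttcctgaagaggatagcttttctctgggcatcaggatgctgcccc

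The next lines show the opposite case, the window of 60 coding bases with most differences, where capitals mark the 36 positions at which the 4 sequences are not all the same. All are written 5′ to 3′ on the coding strand. The window ran from 100425696 to 100425755 in exon 10 of Naip1, from 100160435 to 100160494 in exon 10 of Naip2, from 100221767 to 100221826 in exon 9 of Naip5 and from 100299054 to 100299113 in exon 9 of Naip6.
Naip1: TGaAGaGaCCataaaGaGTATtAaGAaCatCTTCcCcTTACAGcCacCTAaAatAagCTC
Naip2: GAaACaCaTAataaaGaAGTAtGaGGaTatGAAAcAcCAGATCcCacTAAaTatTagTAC
Naip5: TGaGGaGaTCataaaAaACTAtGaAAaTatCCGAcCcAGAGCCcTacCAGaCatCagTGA
Naip6: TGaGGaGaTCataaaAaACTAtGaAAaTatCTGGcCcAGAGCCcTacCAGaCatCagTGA
Read pairs that lie wholly in stretches of the first kind map to several copies, and the deposited counts left them out, so the count of each Naip gene rests on the stretches that differ.

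How much of each gene this touches was measured on the GENCODE M21 transcripts, as the share of a gene's windows of a fixed length that also stand in a transcript of another gene. With 50-base windows the share was 31.5% for Naip1, 19.1% for Naip2, 36.9% for Naip5 and 21.5% for Naip6. With 100-base windows it was 12.98%, 4.44%, 16.2% and 6.26%. Naip1 shared most windows with the pseudogene Naip3, 22.5% of its 50-base windows, and Naip6 shared most with Naip5, 16.9%. Casp1, Gsdmd and Il18 shared none at either length, Nlrc4 shared 1.09% and Casp4 0.240% at 50 bases and neither shared any at 100. Pycard shared 10.3% of its 100-base windows with Gm45205, an overlapping gene model that takes in 485 of the 3800 exon bases of Pycard. Read length and mate distance are not given in the sources used here, so these shares are a guide to the loss and not a correction.

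**Figure D1:**
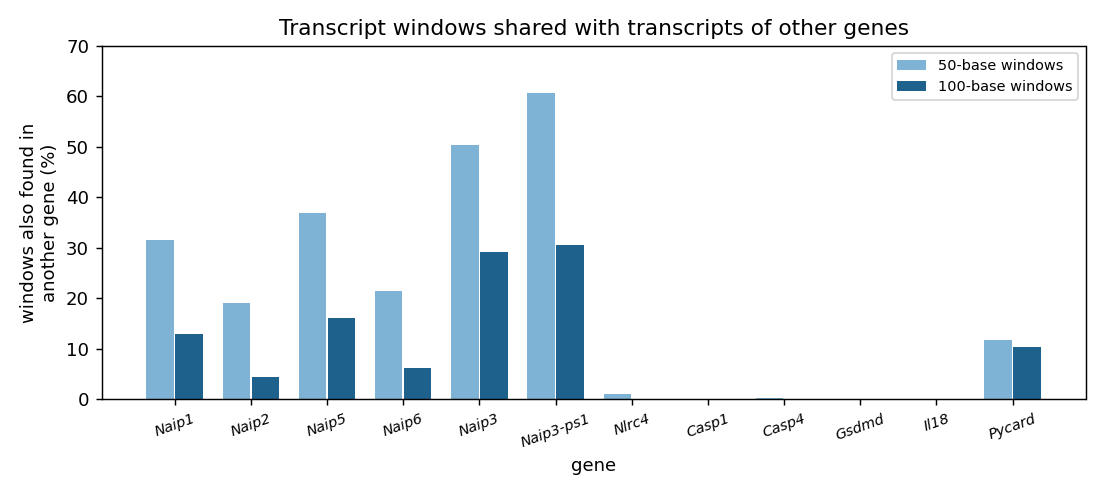
Bars give, for each gene on the x axis, the percentage of its transcript windows (y axis, %) that also occur in a transcript of another gene, at 50 and 100 bases. The Naip copies and their pseudogenes share from 19.1% to 60.6% of 50-base windows, whereas Casp1, Gsdmd and Il18 share 0.

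The libraries held 15213972 to 16972758 counts each. Values are CPM, read counts scaled to library size, with library sizes adjusted by the trimmed mean of M values (TMM). A log2 fold change is printed with its SE and is above 0 when the KO-labelled libraries had more. They come from the quasi-likelihood test of edgeR with Benjamini-Hochberg adjusted p over all 14107 genes, two-sided, and a gene was said to change only at an adjusted p below 0.05. Trmt6, the check on the labels, stood at 39.8, 34.2 and 36.2 CPM in the KO-labelled and 30.9, 18.7 and 23.1 CPM in the WT-labelled libraries. The targeted transcript was thus not lower in the KO-labelled libraries but higher, without overlap, and short of the threshold. Its log2 fold change was 0.60 ± 0.21 (edgeR adjusted p = 0.335, and 0.0256 before adjustment). Every direction below rests on the labels alone. Epithelial markers far outweighed those of other cell types. The 10 epithelial markers summed to 11836 to 15470 CPM, led by Krt8 and Vil1, while the 12 monocyte and macrophage markers summed to 20.8 to 34.9 CPM in the KO-labelled libraries and 18.1 to 33.0 CPM in WT. Of the latter, Cd163 was at 0 in all 6 libraries, Adgre1 and Fcgr1 stayed under 1 CPM, and Cd14 and Itgam led the list. The 10 neutrophil markers summed to 1.92 to 12.0 CPM in the KO-labelled libraries and 0.409 to 3.12 CPM in WT, led by Mmp9 and S100a8. S100a8 and S100a9 were at 0 in all 3 WT libraries. In the KO-labelled ones S100a8 stood at 0.056, 0.559 and 3.42 CPM and S100a9 at 0.056, 1.61 and 2.21 CPM. The KO72 value of each is 1 read, and 0 genes of this list were abundant enough to test. The part of neutrophils in the differences below was not tested. The 7 fibroblast markers summed to at most 15.6 CPM and the 8 B and plasma cell markers to at most 7.90 CPM. The smooth muscle list stood at 159 to 194 CPM in the KO-labelled libraries and 195 to 372 CPM in WT. Nearly all of it was Mylk (-0.65 ± 0.26, edgeR adjusted p = 0.384), with Des, Myh11 and Actg2 under 1 CPM. T and NK cell markers, led by Gzma and Ptprc, ranged from 115 to 929 CPM in the KO-labelled libraries and from 326 to 1201 CPM in WT. In bulk tissue fewer cells of a type and less RNA per cell cannot be told apart.

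The inflammasome and pyroptosis genes were readily measured in these libraries. Per length, as CPM per kilobase of exon, Gsdmd stood highest at a mean of 207 over the 6 libraries and Casp4 lowest at 8.07. Between them followed Il18 (89.4), Naip6 (72.3), Naip5 (69.2), Casp1 (49.3), Pycard (35.3), Naip1 (31.5), Naip2 (29.7) and Nlrc4 (26.0). Casp4 lay below Nlrc4 without overlap in both groups. Of the other neighbours in the order, Gsdmd and Il18 overlapped in both groups although Gsdmd was higher in 6 of 6 libraries, and Il18 and Naip6, Casp1 and Pycard, and Naip2 and Nlrc4 also overlapped in both. Naip6 and Naip5, Naip5 and Casp1, and Naip1 and Naip2 were apart in the KO-labelled libraries and overlapped in WT, while Pycard and Naip1 were apart in WT and overlapped in the KO-labelled libraries. The order of the Naip copies differed between the groups. In the KO-labelled libraries the levels per kilobase were 92.5 ± 5.80 for Naip6, 72.2 ± 6.63 for Naip5, 44.1 ± 6.15 for Naip1 and 33.7 ± 2.22 for Naip2 (SD, n = 3), with Naip1 above Naip2 in 3 of 3. In WT they were 52.0 ± 25.1, 66.1 ± 16.3, 19.0 ± 1.40 and 25.7 ± 2.61, with Naip1 below Naip2 in 3 of 3. These levels count only reads that map to 1 place, so the copies with more shared windows are counted low. The length used is all exon bases of a gene in the deposited counts, which can exceed the length of its transcripts. Casp1 had 3136 such bases but only 1448 different 50-base windows in its GENCODE M21 transcripts. The order of genes by level per length is therefore approximate.

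None of the 10 genes changed between the groups at an adjusted p below 0.05. Over all genes 0.0425% passed, 6 genes in number. The smallest adjusted p was 0.112, for Naip1. At an unadjusted p below 0.05 stood 3 of the 10, Naip1, Naip2 and Nlrc4, all higher in the KO-labelled libraries, where 12.1% of all genes passed in either direction and 6.15% toward higher values. The median log2 fold change of the 10 was 0.53, with 8 above 0 and 2 below, against a median of -0.033 and 46.1% above 0 over all genes. The groups did not overlap for 3 of the 10, Naip1, Naip2 and Naip6, again all higher, and 9.70% of all genes had groups apart in that direction and 9.03% in the other, where none of the 10 stood. These counts describe the list, whose members are partly neighbouring copies of 1 gene.

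**Figure D2:**
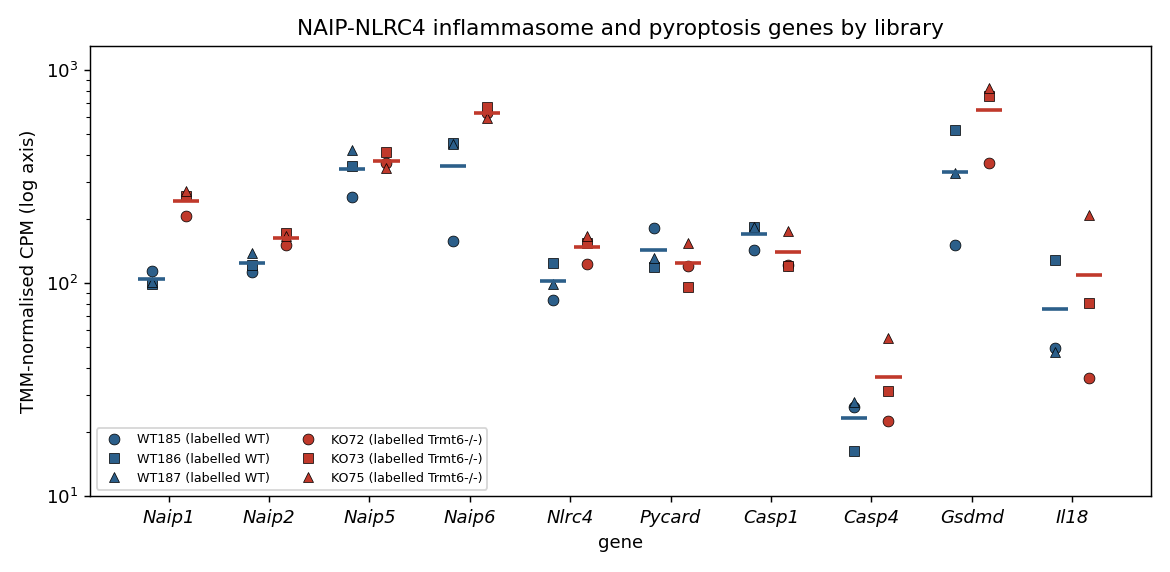
Points are TMM-normalised CPM (y axis, log scale) of each gene (x axis) in each library, blue for WT and red for the KO-labelled libraries, and horizontal lines are group means. Naip1 shows the groups apart, from 99.6 to 114 CPM against 206 to 271 CPM, while Gsdmd and Il18 spread widely within each group.

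Among the 4 coding Naip genes, Naip1, which recognises the needle protein of type III secretion systems, had the largest log2 fold change with all 6 libraries and no covariate. It stood at 206, 256 and 271 CPM in the KO-labelled and 114, 99.6 and 101 CPM in the WT-labelled libraries. All 3 KO-labelled libraries were above all 3 WT libraries, and the lowest of them stood well above the highest WT library. The log2 fold change was 1.22 ± 0.17, a 2.33-fold difference (edgeR adjusted p = 0.112, and 1.8e-04 before adjustment). It did not pass the threshold. DESeq2 gave the same size and an adjusted p of 6.1e-08, and edgeR without a filter on low counts gave an adjusted p of 0.0246. These fits called 633 and 159 genes in all, 4.49% and 0.589% of those tested. Over the 15 alternatives the log2 fold change of Naip1 ran from 1.13 to 1.33 and its adjusted p from 6.1e-08 to 0.452.

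The pseudogene Naip3 lies next to Naip1 and shares 30.2% of its own 50-base windows with it. It stood at 24.9, 33.9 and 31.8 CPM in the KO-labelled and 11.6, 12.6 and 9.71 CPM in the WT-labelled libraries. It followed the same order of groups as Naip1, without overlap, at a log2 fold change of 1.42 ± 0.20 (edgeR adjusted p = 0.112). There were 8.27, 7.55 and 8.52 Naip1 counts for each Naip3 count in the KO-labelled and 9.84, 7.89 and 10.4 in the WT-labelled libraries. Whether reads of 1 gene were placed on the other was not tested. The second pseudogene, Naip3-ps1, overlapped between groups, at 58.2, 51.1 and 32.7 CPM against 15.8, 39.5 and 54.9 CPM (0.37 ± 0.44, adjusted p = 0.819).

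Naip2, which recognises the inner rod protein of type III secretion systems, showed a smaller difference. It stood at 151, 172 and 167 CPM in the KO-labelled and 113, 122 and 138 CPM in the WT-labelled libraries. The groups were apart by a narrow margin. Its log2 fold change was 0.39 ± 0.15 (edgeR adjusted p = 0.363, and 0.0332 before adjustment), and it ran from 0.32 to 0.49 over the alternatives.

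Naip5 and Naip6, the flagellin sensors and the most abundant copies, differed in where their highest values stood. Naip6 stood at 628, 673 and 594 CPM in the KO-labelled and 158, 455 and 453 CPM in the WT-labelled libraries. The KO-labelled libraries were above all of WT, but WT185 lay far under the other WT libraries. Its log2 fold change was 0.83 ± 0.40 (edgeR adjusted p = 0.487), without WT185 it was 0.50 (adjusted p = 0.320), and with an index of position along the intestine as a covariate, described below with Gsdmd, it was 1.60 (adjusted p = 0.135). Naip5 was measured at 366, 414 and 347 CPM against 255, 354 and 424 CPM for the same libraries. Here the highest value of all was in WT187 and the groups overlapped (0.13 ± 0.23, adjusted p = 0.887), with a log2 fold change of -0.027 without WT185. As these copies are 97.0% identical in their coding sequence, the split of reads between them is uncertain.

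The make-up of the Naip counts set WT185 apart from the other WT libraries. Naip1 made up 15.2%, 16.9% and 19.7% of the counts on the 4 coding copies in the KO-labelled libraries. In WT its share was 17.8% in WT185 but 9.66% in WT186 and 9.08% in WT187. Naip6 made up 43.1% to 46.5% in the KO-labelled libraries and 24.6%, 44.1% and 40.6% in the WT-labelled ones. The Naip1 share of WT185 lay within the KO-labelled range, and its Naip6 share was the lowest of the 6 libraries. Summed over the 4 copies, the level per kilobase was 231, 260 and 237 in the KO-labelled and 116, 178 and 195 in the WT-labelled libraries. The summed levels of the groups did not overlap, and they include Naip1, Naip2 and Naip6, whose groups were each apart already. Over all genes 9.70% had groups apart in that direction.

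Nlrc4, the adaptor that NAIPs recruit, stood at 123, 155 and 166 CPM in the KO-labelled and 83.1, 124 and 99.5 CPM in the WT-labelled libraries. KO72 lay just under WT186, so the groups overlapped by 1 library of each. Its log2 fold change was 0.53 ± 0.20 (edgeR adjusted p = 0.368, and 0.0349 before adjustment) and stayed between 0.42 and 0.87 over the alternatives. Its 3 most similar genes over the 6 libraries, by the mean absolute difference in centred log2 CPM among 10345 genes at 5 CPM or more, were Sptlc2 (0.039), Slc7a9 (0.045) and Arhgap27 (0.046). Sptlc2, a subunit of the enzyme that starts sphingolipid synthesis, stood at 191, 254 and 294 CPM against 135, 203 and 159 CPM for the same libraries.

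The adaptor ASC and caspase-1, which serve the NAIP and other inflammasomes alike, are encoded by the 2 members with log2 fold changes below 0. Pycard was at 121, 96.3 and 155 CPM in the KO-labelled and 182, 119 and 131 CPM in the WT-labelled libraries. The groups overlapped and the highest value was in WT185 (-0.21 ± 0.24, edgeR adjusted p = 0.801). Without WT185 its log2 fold change was 0.012. Casp1 was measured at 122, 120 and 176 CPM against 144, 183 and 183 CPM. Its 2 lowest values were in KO72 and KO73 and the groups overlapped (-0.28 ± 0.21, adjusted p = 0.674).

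Casp4, the caspase of the non-canonical pathway, was the least abundant of the set. It stood at 22.6, 31.2 and 55.5 CPM in the KO-labelled and 26.3, 16.4 and 27.6 CPM in the WT-labelled libraries. KO75 was highest, and KO72 lay within the WT range. Its log2 fold change was 0.64 ± 0.37 (edgeR adjusted p = 0.573), and without KO75 it was 0.21 (adjusted p = 0.851).

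Gsdmd, the pore-forming substrate of both caspases, had the highest counts per length. It stood at 366, 758 and 823 CPM in the KO-labelled and 151, 524 and 328 CPM in the WT-labelled libraries. KO73 and KO75 were above all WT libraries, KO72 lay inside the WT range, and the lowest value of each group was in KO72 and WT185. The log2 fold change was 0.96 ± 0.50, a 1.94-fold difference that did not pass the test (adjusted p = 0.524, edgeR). An index of position along the intestine, the mean log2 CPM of ileal genes minus that of proximal genes, was highest in these same libraries within each group. It was 0.62, -0.998 and -4.10 in the KO-labelled and -1.79, -7.89 and -6.23 in the WT-labelled libraries. With this index as a covariate the log2 fold change of Gsdmd was 2.07 and its adjusted p 0.0606, the lowest it had under any alternative. In the same fit Naip1 had 1.24 (edgeR adjusted p = 0.0614) and Nlrc4 0.87 (adjusted p = 0.0775). Over the whole series 0 genes passed the threshold in it, and the share of all genes at such adjusted p was not counted. The index was itself higher in KO72 and KO73 than in all WT libraries, so index and genotype are partly aligned. That fit leaves 3 residual degrees of freedom, and the part of position in the difference was not tested further.

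Il18, the cytokine gene, varied most between libraries of 1 group. It stood at 35.95, 81.2 and 210 CPM in the KO-labelled and 49.8, 129 and 47.6 CPM in the WT-labelled libraries. The highest and the lowest value of the series were both in the KO-labelled group. The log2 fold change of 0.53 ± 0.67 was smaller than its SE (edgeR adjusted p = 0.827). It turned to -0.36 without KO75 and was 1.44 with the position index as a covariate (adjusted p = 0.166). By the measure used for Nlrc4, no gene lay as near to Il18 as others did to Nlrc4. That measure is not scaled to a gene's own spread, and Il18 spread more widely than Nlrc4. The 3 most similar were Prkg2 (0.264), Itga7 (0.266) and Slc35c2 (0.277), and Prkg2, a cyclic GMP-dependent kinase, stood at 67.0, 186 and 256 CPM against 89.7, 208 and 118 CPM.

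**Figure D3:**
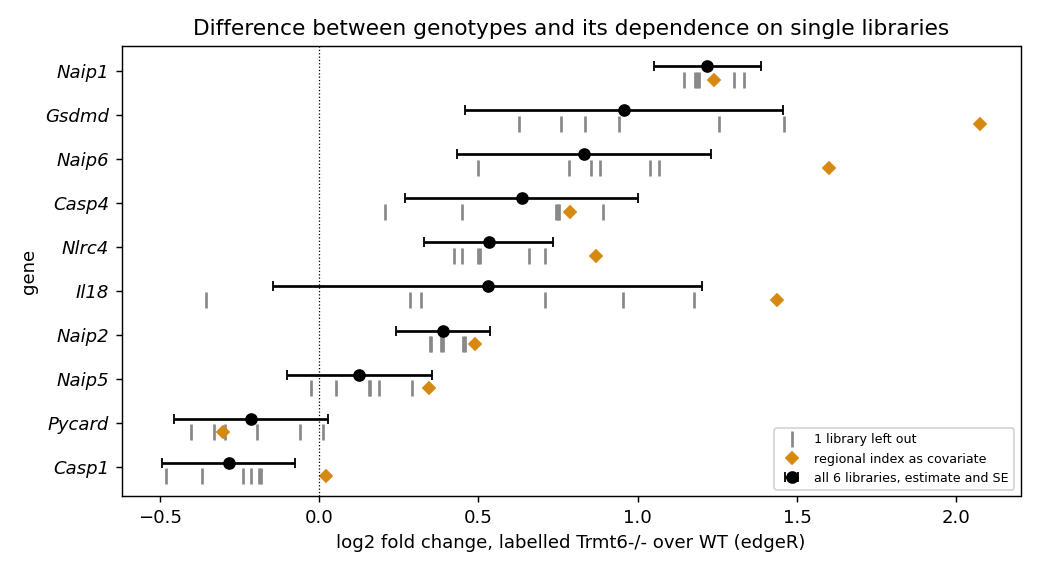
For each gene (y axis) the black point and bar are the log2 fold change and SE from all 6 libraries (x axis), grey ticks the estimates with 1 library left out, and orange diamonds the estimate with the position index as a covariate. Naip1 keeps a narrow range from 1.14 to 1.33 with 1 library left out, whereas Il18 runs from -0.36 to 1.18.

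Of the other genes of the pathway, 73 were listed in 5 groups, 70 had a row and 54 could be tested. None of the 54 passed the test with edgeR. At an unadjusted p below 0.05 stood 10 of them, 7 higher and 3 lower in the KO-labelled libraries, beside 12.1% of all genes in either direction and 6.15% toward higher values. The median log2 fold change was -0.092, against -0.033 over all genes. The groups of Myd88, Serpinb1a, Txnip, Pdcd6ip, Chmp4b and Vps4b were apart, higher in the KO-labelled libraries. Those of Nlrp6 and Il1rap were apart too, lower in the KO-labelled libraries. Other tested genes with groups apart are marked singly. Over all genes 9.70% were apart toward higher and 9.03% toward lower values. DESeq2 called 6, where it called 4.49% of all genes (Aim2, Gm12250, Il1rn, Irgm2, Naip3 and Serpinb1a) and edgeR without a low-count filter called 2, where it called 0.589% of all genes (Irgm2 and Naip3).

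Of the other sensors and Naip rows, 10 had a row and 5 were testable, 3 above 0 and 2 below. Nlrp6, an epithelial sensor tied to mucus secretion, was the most abundant at 397 ± 57.4 against 497 ± 29.8 CPM (SD, n = 3; -0.32 ± 0.19, edgeR adjusted p = 0.574). Nlrp9b, an epithelial sensor of viral RNA, stood at 87.7 ± 26.6 against 76.5 ± 38.4 CPM and Nlrp1b at 25.1 ± 3.65 against 25.7 ± 10.2 CPM. Aim2, the sensor of cytosolic DNA, stood at 30.6, 19.1 and 19.6 CPM in the KO-labelled and 11.2, 3.89 and 7.31 CPM in the WT-labelled libraries. The groups of Aim2 did not overlap (1.63 ± 0.41, adjusted p = 0.221). Nlrp3, the sensor best known from macrophages, reached at most 0.300 CPM, and Nlrp1a, Nlrp10, Nlrp12 and Mefv were also under 1 CPM throughout.

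Among the caspases and gasdermins listed, 9 of 12 were testable, 2 above 0 and 7 below. Casp8, which starts apoptosis and can also be recruited to NLRC4 complexes, was the most abundant of them at 142, 181 and 189 CPM in the KO-labelled and 88.1, 124 and 116 CPM in the WT-labelled libraries. All KO-labelled libraries lay above all WT libraries (0.64 ± 0.19, edgeR adjusted p = 0.275). Gsdme, another pore-forming gasdermin gene, stood at 98.1, 89.5 and 28.4 CPM against 62.5, 9.01 and 23.8 CPM, and the groups overlapped (1.18 ± 0.73, adjusted p = 0.600). Gsdma reached at most 2.87 CPM. Gsdmc4, an epithelial gasdermin C gene, ran from 5.55 to 97.9 CPM within the KO-labelled group and from 13.9 to 65.2 CPM in WT.

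In the IL-1 and IL-18 system 8 of 13 genes were testable, and the cytokine genes Il1a and Il1b stayed at or under 1.71 CPM in every library. Il1rn, which encodes the IL-1 receptor antagonist, stood at 7.96, 3.35 and 2.85 CPM in the KO-labelled and 0.834, 0.273 and 1.20 CPM in the WT-labelled libraries. The groups were apart at low counts (2.60 ± 0.65, edgeR adjusted p = 0.218). Myd88, the adaptor of these receptors, was at 34.9 ± 7.37 against 25.2 ± 2.58 CPM (adjusted p = 0.406), and the inhibitory receptor gene Sigirr at 43.6 ± 7.43 against 33.5 ± 3.26 CPM. The alarmin gene Il33 was at 58.2 ± 47.3 against 19.03 ± 11.8 CPM. Il1rap, the shared receptor subunit, stood at 5.34 ± 1.73 against 9.45 ± 2.58 CPM. Il18bp, the soluble inhibitor of interleukin-18, was at 8.43 ± 4.20 against 8.99 ± 3.45 CPM and was picked with its values known.

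Regulators of inflammasomes had 19 of 20 genes testable, 4 above 0 and 15 below, where 46.1% of all genes were above 0. Irgm2 and Gm12250, genes of interferon-inducible GTPases, had the lowest log2 fold changes of this list. The T and NK cell markers, with a median log2 fold change of -0.47, lay on the same side. The edgeR fit with an index of these markers as a covariate called 0 pathway genes, as did the fit without it. Their part in the differences of Irgm2 and Gm12250 was not tested further. Irgm2 was at 6.77, 12.99 and 16.7 CPM in the KO-labelled and 26.0, 42.4 and 71.0 CPM in the WT-labelled libraries, without overlap (-1.94 ± 0.46, edgeR adjusted p = 0.202). Gm12250, the gene of IRGB10, was at 1.30, 3.91 and 6.19 CPM against 11.9, 19.6 and 32.2 CPM, also without overlap (-2.49 ± 0.61, adjusted p = 0.212). Serpinb1a, a protease inhibitor gene known to restrain caspase-1, stood at 759, 827 and 890 CPM against 414, 571 and 476 CPM (0.76 ± 0.21, adjusted p = 0.245). Txnip, a thioredoxin-binding protein gene, was at 444 ± 119 against 251 ± 78.4 CPM, and Prkcd, a kinase that can phosphorylate NLRC4, at 250.02 ± 45.9 against 278 ± 99.05 CPM. Irf8, a transcription factor gene known to drive Naip and Nlrc4 in macrophages, overlapped between groups at 129 ± 21.7 against 146 ± 57.02 CPM and was picked with its values known.

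Genes acting after gasdermin pores, for eicosanoid synthesis and membrane repair by ESCRT (endosomal sorting complexes required for transport), formed the last list. Of 13 testable genes 0 had an unadjusted p below 0.05 with edgeR. DESeq2 called none of them either. Pdcd6ip, the gene of the ESCRT adaptor ALIX, stood at 414 ± 31.1 against 337 ± 36.4 CPM, Chmp4b at 203 ± 13.5 against 162 ± 13.8 CPM, Vps4b at 188 ± 1.11 against 155 ± 20.02 CPM and Chmp4c at 254 ± 37.2 against 258 ± 64.3 CPM. The smallest adjusted p of this list was 0.460, for Chmp4b. The prostaglandin enzyme genes Ptgs2 and Ptges were under 1 CPM in every library.

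**Figure D4:**
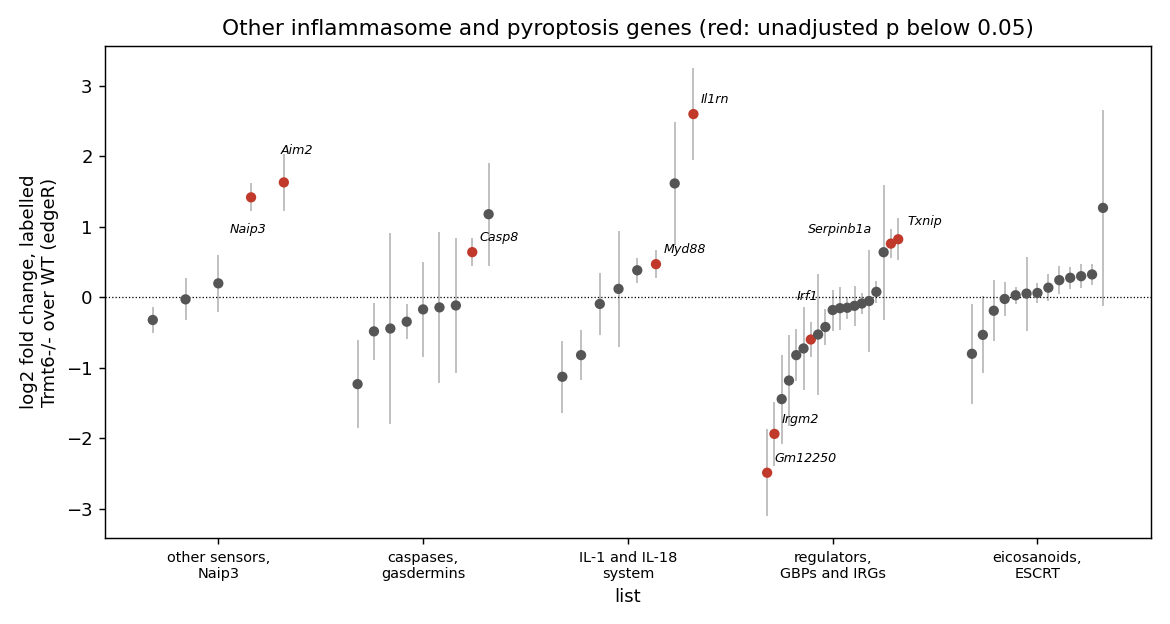
Points are log2 fold changes with SE (y axis) of the 54 tested pathway genes in their 5 lists (x axis), positive where the KO-labelled libraries were higher. Red marks the 10 genes at an unadjusted p below 0.05, of which Il1rn is highest at 2.60 and Gm12250 lowest at -2.49, and none passed after adjustment.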

How the data were processed

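Intestinal tissue RNA of 6 mice given DSS was sequenced, 3 labelled WT and 3 Trmt6-/-, each library from its own mouse per the series design. The deposited values are raw counts made with featureCounts 2.0.1, per the file headers, from paired reads, exons and GENCODE M23 without strand, multimapping or overlap options. Multimapping reads were therefore left out. The submitters' processing notes name fastp, HISAT2 and the mm10 build. Symbols came from GENCODE M21 (55154 of 55335 identifiers matched), as did the sequences, and coordinates of genes from the deposited table.

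Genes were filtered with filterByExpr, TMM-scaled and tested with edgeR 4.0.16 (R 4.3.3), genotype as the only term, over 14107 genes. The biological coefficient of variation was 0.345. Copies were aligned with mafft. Alternatives were other scalings, filters, DESeq2 1.42.0, limma-voom (limma 3.58.1), 2 covariates (the position index of Fabp6, Slc10a2, Fgf15 and Slc51b minus Gata4, Lct, Cybrd1 and Fabp1, and a T and NK cell index) and each library left out. The script was tested on simulated data. The 10 members and the lists were chosen with earlier results of these data known. Named were all members, and of each pathway list the 3 most abundant genes and those with the 3 smallest p, of each marker list the 2 most abundant, and the 3 genes most like Nlrc4 and Il18. Any other gene was picked with its values known. Of the pathway lists, 2 genes are not reported here and were left out of the lists' counts.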

Additional observations from a re-analysis of the deposited data

How the results depend on the processing

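The number of genes past the threshold was 6, against 0 with library totals, the position index as covariate or limma-voom, 1 with the T and NK cell index, 159 without a low-count filter and 633 with DESeq2, and 0 to 6 with 1 library left out. Of the 10 members 0 passed, and 1 (Naip1) passed with DESeq2 and 1 without a low-count filter. Of the pathway genes 0 passed, 6 with DESeq2 and 2 without a low-count filter. With 1 library left out the count was 0 for members and for pathway genes each time. Over 150 fits of single members, 4 turned direction, Naip5 to -0.027 and Pycard to 0.012 without WT185, Il18 to -0.36 without KO75 and Casp1 to 0.023 with the position index, and the cause was not tested. With 1 library left out Naip5 ran from -0.027 to 0.29, Il18 from -0.36 to 1.18 and Pycard from -0.40 to 0.012. Library totals moved the median of all genes from -0.033 to -0.11. The log2 ratio of group means of the Naip level per length was 0.61 as the median of 4 copies, 0.57 as their sum and 0.57 with the pseudogenes added, the last chosen after seeing the data. No paired analysis was possible because the table's columns carry no replicate number.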

Other observations

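Expressed neighbours of the Naip cluster were measured too. Within 500000 bases on either side of the 4 coding copies, 22 genes on chromosome 13 were tested, 16 of them outside the Naip family, and this window was chosen after the values of Naip1 were seen. The median log2 fold change of the 16 was -0.091, with 7 above 0 and 9 below. Gtf2h2, a transcription factor subunit gene next to Naip1, stood at 21.3, 15.9 and 18.4 CPM in the KO-labelled and 21.6, 17.1 and 19.0 CPM in the WT-labelled libraries (-0.054 ± 0.19, edgeR adjusted p = 0.950). Ocln, the occludin gene of tight junctions, stood at 126, 136 and 107 CPM against 123, 142 and 146 CPM (-0.15 ± 0.16, adjusted p = 0.774), and Smn1, a spliceosome assembly gene, at 20.7, 13.3 and 12.7 CPM against 19.1, 10.3 and 15.2 CPM. The pseudogene Rpl31-ps13 lies inside Naip1 and stood at 1.13, 3.00 and 1.35 CPM against 0.260, 0.341 and 0 CPM, without overlap and at low counts (3.15 ± 0.87, adjusted p = 0.251). Of the 16, 2 others had groups apart, both lower in the KO-labelled libraries. Over all genes 9.03% were apart in that direction and 9.70% in the other. The 2 were Bdp1 at 58.8, 53.0 and 47.3 CPM against 62.4, 62.5 and 64.9 CPM (-0.25 ± 0.13, adjusted p = 0.525) and Ak6 at 6.998, 6.64 and 7.05 CPM against 8.23, 8.53 and 8.15 CPM (-0.27 ± 0.22, adjusted p = 0.706).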
